A study of Mus musculus with 15 samples.

Results

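A set of 45 mouse genes of ribosome biogenesis was followed in epiblast-like cells before and during ERK induction. The genes are a list of names of known function, chosen with earlier results of these data known. They were found by Ensembl gene ID in a table of 52636 genes. Each of the 45 matched 1 row, and all 45 passed the filter on low counts, which kept 13451 genes. By the role that each protein is known for, 4 genes belong to RNA polymerase I (Pol I) transcription, 6 to the nucleolar scaffolds and chaperones, 7 to the small nucleolar ribonucleoproteins (snoRNPs), 17 to the small ribosomal subunit and 11 to the large ribosomal subunit.

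Ribosomes are built in the nucleolus, where Pol I transcribes the precursor of the ribosomal RNAs. snoRNPs modify that precursor, and a large set of helicases, scaffolds and GTPases helps to fold and pack it into the small and large subunits. The genes for these proteins are often transcribed together, the transcription factor Myc is a known activator of many of them, and pluripotent cells, which divide fast, are known for prominent nucleoli.

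All 15 samples were EpiLCs of the mouse line CRAFR26, in which a c-RAF kinase construct is switched on by 4-hydroxytamoxifen (4OHT) and then raises ERK signalling. EpiLCs are cells derived from mouse embryonic stem cells that resemble the epiblast after implantation. They had spent 48 h in EpiLC medium with bFGF (12 ng/ml), Activin A (20 ng/ml) and the tankyrase inhibitor XAV939 (1 µM). Every group, 0h included, had been held for 2 h in PD17 (250 nM), an inhibitor of FGF receptors. The 0h group (n = 3) received no 4OHT, the 2h group (n = 4) and the 4h group (n = 4) received 250 nM 4OHT for 2 h and 4 h, and the rev group (n = 4) received 4OHT for 4 h and a MEK inhibitor for a further 2 h. MEK is the kinase that activates ERK. Both clones used, 4 and 8, derive from this line: clone 8 has 2 samples in every group, and clone 4 has 2 in every group except 0h, where it has 1. No sample without the construct was used here, so 4OHT and the kinase it switches on cannot be told apart. No group was kept for the further 2 h without the MEK inhibitor. In rev vs 4h the inhibitor and the added time therefore cannot be told apart. Whether the samples of 1 clone and group came from separate cultures is not given in the sources used here, so each SD and p-value measures only the spread between these samples, which may be technical.

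Total counts ranged from 1552022 to 13004556 per library, and each 4h library (1552022 to 6658950) was below every library of the other groups. Mitochondrial genes took 3.35% ± 0.607 of the counts at 0h (SD, n = 3). They took 4.76% ± 2.06 at 2h, 9.39% ± 2.32 at 4h and 5.20% ± 1.36 in rev (SD, n = 4 each). Each 4h library (7.21% to 12.4%) was above every library of the other groups (at most 6.98%, 2h clone4_2). Library size and mitochondrial share thus go with the 4h group. In comparisons with 4h, their part and that of the treatment cannot be told apart. Genes annotated as rRNA took between 12.8% (2h clone8_2) and 38.7% (rev clone8_1) of the counts of a library. Within 0h they took 18.0% in clone4_1, 16.8% in clone8_1 and 38.2% in clone8_2. Their part in the total count values below was not tested. The 7 epiblast-like marker genes summed to between 1261 and 1536 CPM (a gene's count scaled to the size of its library) at 0h and between 818 and 864 CPM at 4h. Within that list Dnmt3b went from between 863 and 1061 to between 398 and 440 CPM. Pou5f1 went from between 151 and 184 to between 90.8 and 102 CPM, and Fgf5 from between 20.1 and 28.9 to between 4.90 and 15.1 CPM. Sox2 went from between 20.8 and 23.5 to between 81.0 and 141 CPM and Otx2 was higher at 4h, while Utf1 and Pou3f1 overlapped. The 6 naive markers summed to between 29.9 and 37.3 CPM at 0h and between 55.6 and 224 CPM at 4h. Of these, Zfp42, Esrrb, Tfcp2l1 and Tbx3 were higher in every 4h library than in every 0h library, while Klf4 and Nanog overlapped. The 4 neural markers went from between 20.2 and 26.3 to between 47.6 and 65.8 CPM (Sox1 and Pax6 higher, Tubb3 lower). The part of these marker lists in the results below was not tested. Levels are CPM scaled by TMM (trimmed mean of M-values), which sets the middle of all genes close to no change. Scaling by the total count instead moved the median tested gene by -0.73 on the log2 scale in 4h vs 0h, -0.18 in 2h vs 0h, -0.57 in 4h vs 2h, 0.45 in rev vs 4h and -0.30 in rev vs 0h. Directions below are therefore relative to the other genes. In bulk RNA, fewer cells of a type and less RNA per cell cannot be told apart.

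The 45 genes spanned a wide range of expression. Per kilobase of exon, Npm1 was the most abundant at 397 CPM per kb over all samples, followed by Ncl at 149, Ddx21 at 62.4, Mybbp1a at 58.6 and Nhp2 at 56.5 CPM per kb. Npm1 (nucleophosmin) and Ncl (nucleolin) are the abundant nucleolar proteins that chaperone pre-ribosomes. The lowest were the rRNA dimethyltransferase gene Dimt1 at 2.46 and Wdr12 at 2.57 CPM per kb. The smallest count of a member in any library was 10 and the largest 30582, so every member lay above the level of 3 counts (0.161 to 1.83 CPM). Summed over the 45 genes, the TMM-scaled level at 0h was 6492 ± 358 CPM (SD, n = 3). The 2h group stood at 6496 ± 403, the 4h group at 6190 ± 344 and the rev group at 6249 ± 224 CPM (SD, n = 4 each). The means lay closer to the 0h mean than the SD of the 0h samples. As a share of all counts, which moves with the rest of the library, the 45 genes took 0.826% ± 0.229 at 0h (SD, n = 3). The share was 0.723% ± 0.166 at 2h, 0.483% ± 0.115 at 4h and 0.636% ± 0.112 in rev (SD, n = 4 each). The 0h libraries (0.563% to 0.984%) and the 4h libraries (0.406% to 0.654%) overlapped.

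After 2 h of 4OHT, 0 of the 45 genes rose (0 also in DESeq2) and 1 fell at an adjusted p under 0.05 (edgeR quasi-likelihood test, Benjamini-Hochberg over 13451 genes), against 3.98% of all tested genes higher and 2.46% lower. At an unadjusted p under 0.05, 8 of the 45 (17.8%) differed, beside 21.1% of all tested genes. The median log2 fold change was -0.047, beside 0.0067 over all tested genes, with a range of -0.38 to 0.31. The gene that fell was Polr1b, which encodes the second largest subunit of Pol I. Its level was 69.7, 61.4 and 62.9 CPM at 0h (clone4_1, clone8_1, clone8_2) and 58.1, 51.4, 45.3 and 49.4 CPM at 2h (clone4_1, clone4_2, clone8_1, clone8_2). Every 2h sample was below every 0h sample, with a log2 fold change of -0.38 ± 0.099 (SE), adjusted p = 0.0229. The call was lost without 0h clone4_1 (adjusted p = 0.0951), 0h clone8_1 (0.0714), 0h clone8_2 (0.0687), 2h clone4_2 (0.0644) or 2h clone8_1 (0.084), each of which left 0 of 45 lower, and 3 of 45 were lower without 2h clone4_1.

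After 4 h, falls were more frequent and rises less frequent among the 45 than over all tested genes. In 4h vs 0h, 15 of the 45 fell, 7 rose and 23 did not pass the test, against 18.9% of all tested genes lower and 20.5% higher. The median log2 fold change of the 45 was -0.10, beside 0.026 over all tested genes, and single genes ranged from -0.93 (Nip7) to 0.48 (Noc3l). All 4h samples lay below all 0h samples for 12 genes and above them for 5, where 18.1% and 18.2% of all tested genes were so separated. With scaling by the total count 35 fell and 0 rose, and without a filter on low counts 17 fell and 2 rose. Over all tested genes, total count scaling called 6697 of 13451, of which 476 were higher. The fit without the filter called 5441 of 32611, of which 2226 were higher. In 4h vs 2h, where 19.2% of all genes were lower and 19.7% higher, 15 members fell and 5 rose (0 rose and 22 fell scaled by the total count, 2 rose and 19 fell without the filter). Over all genes in 4h vs 2h, these settings called 5356 of 13451 (487 higher) and 5352 of 32611 (2089 higher). The 5 rises of members became 3 without 4h clone4_2.

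**Figure D1:**
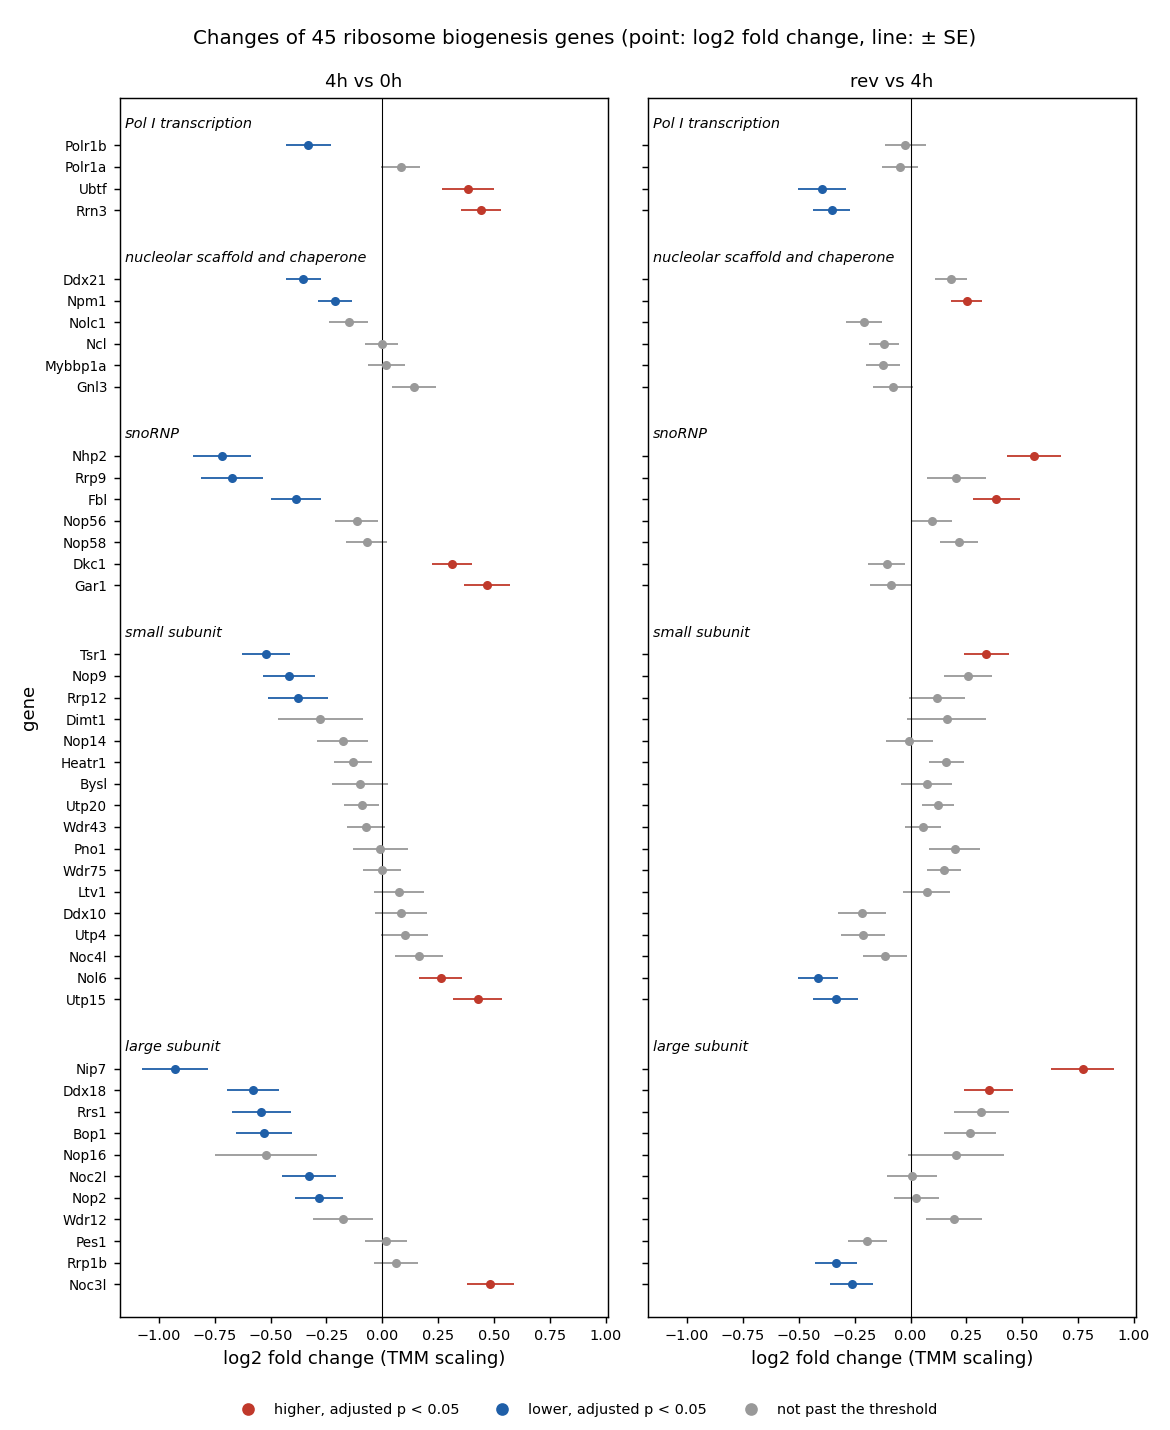
Log2 fold change (x axis, TMM scaling) of the 45 genes (y axis, grouped by role) in 4h vs 0h and in rev vs 4h; points are fitted values, lines are ± SE, and colour marks an adjusted p under 0.05. Most coloured genes at 4h lie left of 0 (15 against 7), with 6 of them in the large subunit group, and in rev vs 4h the 12 coloured genes divide into 6 on each side; scaled by the total count, all 7 rises of 4h vs 0h lie below 0.

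Upstream sequence was available in a RefSeq table (GRCm38.p6) for 39 of the 45 genes, and the 250 bases before the start site were searched for the E-box CACGTG, which Myc binds with Max, and for CCGGAAG, a core bound by ETS factors, some of which ERK phosphorylates. Both strands were read. In the windows printed here the matches of the motifs do not overlap. The E-box was found in 2 of 39 (5.13%), Rrn3 and Nop2, against 6.86% of 27025 genes and 10.2% of 9888 tested genes. The ETS core was found in 9 of 39 (23.1%), against 7.83% of all genes and 15.9% of tested genes. By 4h vs 0h, the ETS core was in 3 of 10 genes that fell, 1 of 6 that rose and 5 of 23 that did not pass the test. A match describes the letters in the window, not a site in use. Shown are 3 genes with matches from both directions of change. Rrn3 rose in 4h vs 0h and holds 2 E-boxes, Gar1 rose and holds an ETS core on the opposite strand, and Nop2 fell and holds both motifs. Each is given 5′ to 3′ on the strand of its gene, with matches in capitals, at chr16:13780449-13780698 (plus strand), chr3:129831397-129831646 (minus strand) and chr6:125131633-125131882 (plus strand).
Rrn3: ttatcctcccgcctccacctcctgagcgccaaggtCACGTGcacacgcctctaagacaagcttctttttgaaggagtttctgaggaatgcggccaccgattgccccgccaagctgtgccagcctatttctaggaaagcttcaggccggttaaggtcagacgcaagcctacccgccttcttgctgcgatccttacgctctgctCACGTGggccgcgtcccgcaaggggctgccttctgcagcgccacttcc
Gar1: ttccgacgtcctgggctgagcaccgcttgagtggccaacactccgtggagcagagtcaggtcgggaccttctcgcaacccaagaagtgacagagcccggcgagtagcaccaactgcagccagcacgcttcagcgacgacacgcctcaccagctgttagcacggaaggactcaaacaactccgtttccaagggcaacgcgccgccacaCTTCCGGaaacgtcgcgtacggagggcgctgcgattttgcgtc
Nop2: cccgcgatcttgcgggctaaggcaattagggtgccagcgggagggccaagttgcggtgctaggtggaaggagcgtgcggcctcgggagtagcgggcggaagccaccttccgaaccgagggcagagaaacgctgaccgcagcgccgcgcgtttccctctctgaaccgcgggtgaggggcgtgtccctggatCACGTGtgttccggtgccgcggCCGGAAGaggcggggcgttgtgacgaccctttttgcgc
Counted from the base before the start site as -1, the E-boxes of Rrn3 begin at -215 and -48, the ETS core of Gar1 begins at -43, and in Nop2 the E-box begins at -60 and the ETS core at -38.

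The large subunit factors held the deepest fall and the most falls: 6 of 11 fell in 4h vs 0h, 1 rose, and the median was -0.33. Nip7, a small protein that joins pre-60S particles, lies at chr8:107056877-107060931, plus strand (GRCm38), and fell the most of all 45. It measured 48.4, 44.1 and 40.8 CPM at 0h (clone4_1, clone8_1, clone8_2), 54.9, 41.8, 34.6 and 46.4 at 2h and 17.1, 28.6, 25.5 and 22.6 at 4h (clone4_1, clone4_2, clone8_1, clone8_2). Every 4h sample was below every 0h and 2h sample, and the mean went from 44.4 ± 3.78 (SD, n = 3) to 23.5 ± 4.90 (SD, n = 4), a log2 fold change of -0.93 ± 0.15 (SE), adjusted p = 5.05e-05. The fall was -1.05 in clone 4 and -0.82 in clone 8.

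Ddx18, a DEAD-box RNA helicase of the early large subunit, followed. It stood at 70.1, 51.0 and 49.4 CPM at 0h, 67.5, 51.1, 47.1 and 58.1 at 2h and 37.9, 42.0, 34.6 and 40.0 at 4h, in the sample order given for Nip7. The 4h samples were all below the 0h and 2h samples, and the log2 fold change in 4h vs 0h was -0.58 ± 0.12 (SE), adjusted p = 0.000478. Rrs1, which helps to bring the 5S particle into the large subunit, went from 61.7, 46.8 and 46.9 CPM at 0h to 40.3, 38.8, 33.2 and 33.9 CPM at 4h. Its groups did not overlap, although clone 4 at 0h was well above the clone 8 samples, and the log2 fold change was -0.54 ± 0.13 (SE), adjusted p = 0.00273. Bop1, which acts in the PeBoW complex with Pes1 and Wdr12, fell as well (-0.53 ± 0.13 (SE), adjusted p = 0.00199), while its partners Pes1 and Wdr12 did not pass the test. The calls of Nip7, Ddx18, Rrs1 and Bop1 held under every left-out library in 4h vs 0h. Noc2l (-0.33) and the rRNA methyltransferase gene Nop2 (-0.28) fell less, with groups that overlapped. Their calls were lost without 0h clone4_1 (adjusted p = 0.157 and 0.238), 0h clone8_1 (0.0621 and 0.0761) or 4h clone8_2 (0.0734 and 0.0643), that of Noc2l also without 0h clone8_2 (0.0535) or 4h clone4_2 (0.0643), and that of Nop2 without 4h clone4_1 (0.0837) or 4h clone8_1 (0.0552).

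Noc3l, whose protein travels with pre-60S particles, was the 1 large subunit factor that rose, and its rise was the largest of the 45. It measured 31.8, 30.2 and 34.2 CPM at 0h, 31.7, 37.8, 32.4 and 30.6 at 2h and 47.6, 50.8, 44.4 and 40.0 at 4h. All 4h samples were above all earlier samples, clone 4 highest, with a log2 fold change of 0.48 ± 0.11 (SE), adjusted p = 0.000977 in 4h vs 0h (below 0, at -0.22, when scaled by the total count). Rrp1b, a nucleolar protein linked to protein phosphatase 1, did not pass the test in 4h vs 0h but rose in 4h vs 2h. It measured 91.3, 86.4 and 86.4 CPM at 0h, 80.9, 78.5, 67.2 and 77.7 at 2h and 80.0, 92.3, 100.2 and 95.4 at 4h. Every 2h sample was below every 0h sample (log2 fold change -0.22, not past the threshold). The mean was 88.0 CPM at 0h and 92.0 CPM at 4h. In 4h vs 2h the groups overlapped, and the log2 fold change of 0.28 ± 0.093 (SE), adjusted p = 0.0219 was -0.26 scaled by the total count. It lost its call without 2h clone8_1 (adjusted p = 0.0821), 4h clone4_2 (0.0509), 4h clone8_1 (0.0868) or 4h clone8_2 (0.064).

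**Figure D2:**
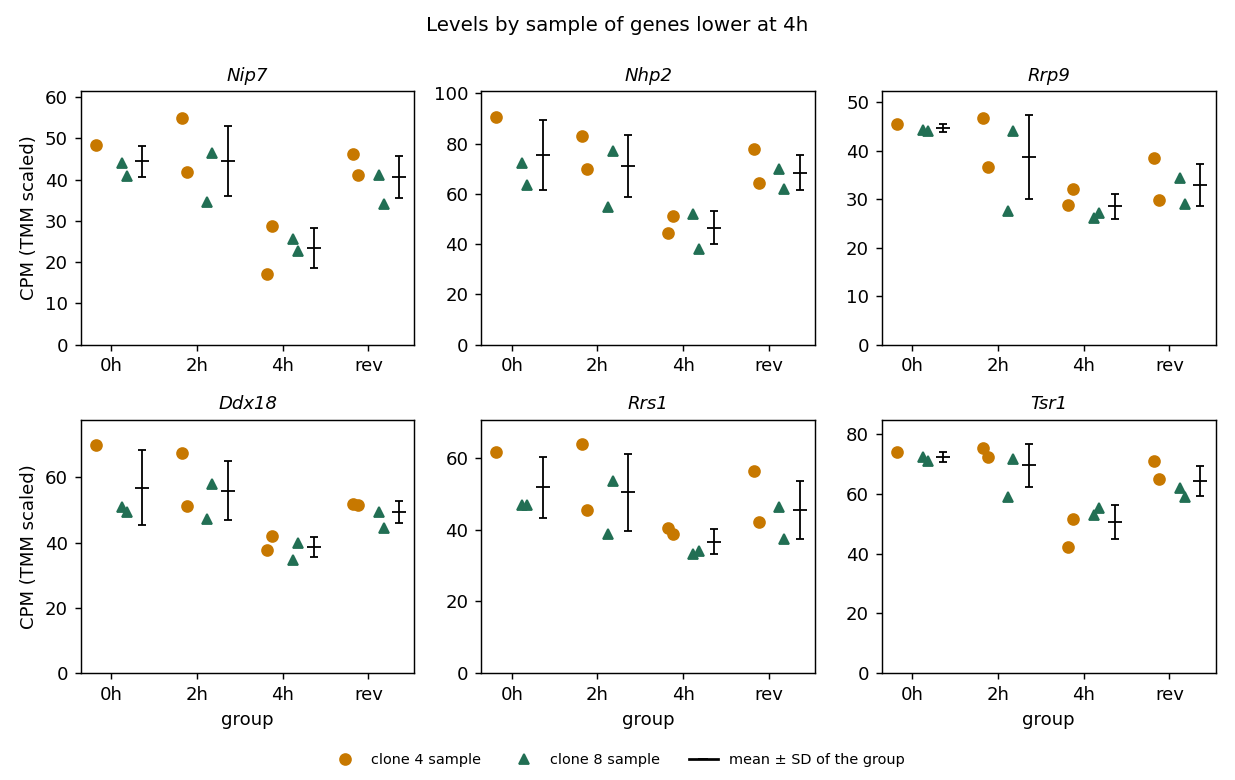
TMM-scaled CPM (y axis, from 0) of Nip7, Nhp2, Rrp9, Ddx18, Rrs1 and Tsr1 in each sample by group (x axis); circles are clone 4, triangles clone 8, and bars the mean ± SD of the group (n = 3 at 0h, n = 4 otherwise). In each panel all 4h samples lie below all 0h samples, and Nip7 stands at 34.0 to 46.3 CPM in rev.

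Of the 7 snoRNP genes, 3 fell and 2 rose in 4h vs 0h. Nhp2, Gar1 and Dkc1 (dyskerin) are core proteins of the H/ACA snoRNPs, which convert uridine to pseudouridine, and their genes went different ways. Nhp2 measured 90.7, 72.3 and 63.6 CPM at 0h (clone4_1, clone8_1, clone8_2), 83.2, 69.9, 54.7 and 77.1 at 2h and 44.6, 51.3, 52.1 and 38.1 at 4h (clone4_1, clone4_2, clone8_1, clone8_2). All 4h samples were the lowest, and the log2 fold change was -0.72 ± 0.13 (SE), adjusted p = 0.000186.

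Gar1 measured 39.4, 22.7 and 21.8 CPM at 0h, 46.9, 51.9, 22.9 and 26.8 at 2h and 52.5, 54.8, 30.7 and 31.7 at 4h, in the same order. The groups overlapped, with clone 4 far above clone 8 at each time, but within each clone every 4h sample was above every 0h sample. The fit with clone as a term gave 0.47 ± 0.10 (SE), adjusted p = 0.00116 (-0.26 scaled by the total count), and without that term the adjusted p was 0.212. Dkc1 rose by a log2 fold change of 0.31 ± 0.090 (SE), adjusted p = 0.00894, from 97.2 ± 3.17 (SD, n = 3) to 121 ± 11.3 (SD, n = 4) CPM, and stood at -0.42 scaled by the total count. So within 1 complex Nhp2 was lower and Gar1 and Dkc1 were higher at 4h than at 0h, relative to all genes.

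Among the box C/D proteins, which guide 2'-O-methylation, Fbl (fibrillarin, the methyltransferase) measured 43.8, 49.2 and 48.1 CPM at 0h, 46.8, 40.0, 40.0 and 49.7 at 2h and 31.8, 33.1, 38.7 and 37.3 at 4h. Its 4h samples lay below all earlier samples, with a log2 fold change of -0.39 ± 0.11 (SE), adjusted p = 0.00972 in 4h vs 0h. Nop56 and Nop58, its partners in the same particles, did not pass the test in 4h vs 0h. In 4h vs 2h Nop58 was lower (-0.22, adjusted p = 0.0447), a call lost without any 1 of 5 libraries. Rrp9, a protein of the U3 snoRNP needed for the early cuts of the precursor, measured 45.6, 44.3 and 44.0 CPM at 0h, 46.6, 36.6, 27.5 and 44.0 at 2h and 28.7, 32.1, 26.2 and 27.1 at 4h. The 4h samples were below the 0h samples, 2h clone8_1 was as low as the 4h samples, and the log2 fold change in 4h vs 0h was -0.67 ± 0.14 (SE), adjusted p = 0.00067. The calls of Nhp2, Fbl and Rrp9 in 4h vs 0h held without each library in turn.

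Of the 4 Pol I genes, Rrn3 and Ubtf rose and Polr1b was lower in 4h vs 0h, while Polr1a did not pass the test. Rrn3 encodes TIF-IA, the factor that ties Pol I to the promoter and that ERK is known to phosphorylate. It measured 93.5, 109 and 107 CPM at 0h, 104, 118, 124 and 114 at 2h and 129, 149, 145 and 131 at 4h. All 4h samples were the highest in both clones, and the log2 fold change was 0.44 ± 0.089 (SE), adjusted p = 0.000504 (-0.28 scaled by the total count).

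Ubtf encodes UBF, which keeps ribosomal DNA open and helps to recruit Pol I. It measured 142, 116 and 112 CPM at 0h, 169, 123, 92.4 and 126 at 2h and 178, 181, 157 and 150.0 at 4h. The 4h samples were above the 0h samples, but 2h clone4_1 reached the level of the 4h samples, and the log2 fold change in 4h vs 0h was 0.38 ± 0.12 (SE), adjusted p = 0.0115 (-0.33 scaled by the total count). This call was lost without 0h clone4_1 (adjusted p = 0.0521), 0h clone8_2 (0.0548) or 4h clone8_1 (0.0526).

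The catalytic subunits behaved otherwise. Polr1b stood at 58.6, 50.4, 47.1 and 54.3 CPM at 4h, with every sample below the 0h samples given above, and its log2 fold change in 4h vs 0h was -0.33 ± 0.10 (SE), adjusted p = 0.0116. Polr1a, the largest subunit, measured 131, 117 and 129 CPM at 0h, 137, 131, 127 and 124 at 2h and 151, 126, 125 and 136 at 4h. Its groups overlapped, and the log2 fold change of 0.082 ± 0.087 (SE), adjusted p = 0.481 did not pass the test.

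**Figure D3:**
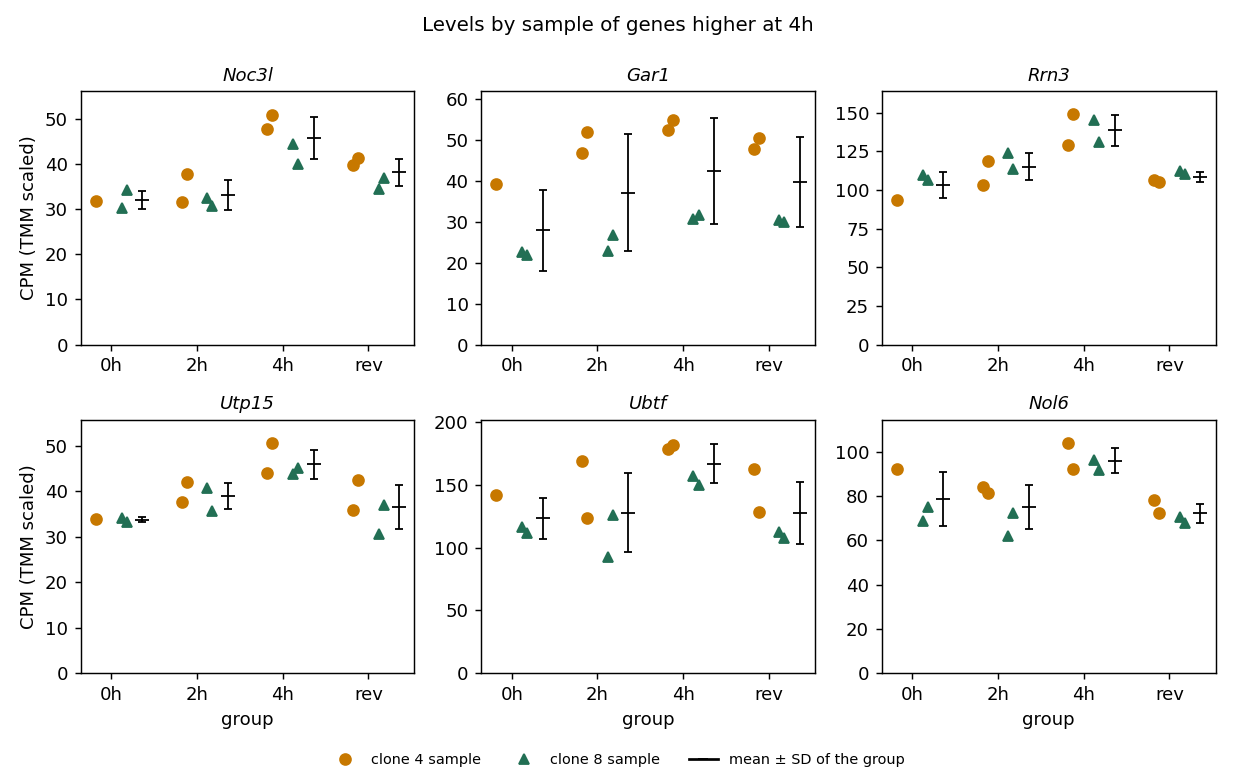
TMM-scaled CPM (y axis, from 0) of Noc3l, Gar1, Rrn3, Utp15, Ubtf and Nol6 in each sample by group (x axis), with circles for clone 4, triangles for clone 8 and bars for the group mean ± SD (n = 3 at 0h, n = 4 otherwise). Noc3l, Rrn3 and Utp15 at 4h lie above all 0h samples, and Gar1 shows a gap between clones (39.4 CPM in clone 4 and 22.7 and 21.8 in clone 8 at 0h); scaled by the total count, the rises of all 6 in 4h vs 0h lie below 0.

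Of the 6 scaffold and chaperone genes, 2 fell at 4h and 4, among them Ncl, did not pass the test. Ncl measured 1651, 1487 and 1491 CPM at 0h, 1725, 1438, 1374 and 1629.7 at 2h and 1651, 1686, 1404 and 1511 at 4h. The groups overlapped throughout, and its log2 fold change in 4h vs 0h was -0.00244 ± 0.074 (SE), adjusted p = 0.982. Npm1 measured 1126, 1036 and 1062 CPM at 0h, 1158, 1118, 1091 and 1129 at 2h and 866, 1045, 939.7 and 875 at 4h. Here 4h clone4_2 overlapped the 0h range and the other 4h samples were lower, and the log2 fold change was -0.21 ± 0.076 (SE), adjusted p = 0.0307. The call of Npm1 was lost without 0h clone4_1 (adjusted p = 0.149), 0h clone8_2 (0.0515), 4h clone4_1 (0.0822) or 4h clone8_2 (0.0752), while the fall in 4h vs 2h (-0.27 ± 0.070 (SE), adjusted p = 0.004) held without each library in turn. Ddx21, a helicase that works with Pol I transcripts, fell from 354 ± 21.7 (SD, n = 3) to 283 ± 24.6 (SD, n = 4) CPM (-0.35 ± 0.078 (SE), adjusted p = 0.00115) with no overlap. Nolc1, Gnl3 and Mybbp1a did not pass the test in 4h vs 0h.

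In the largest group, the small subunit factors, most genes did not pass the test in 4h vs 0h: 3 fell, 2 rose and 12 did neither. Tsr1, a GTPase-like protein of late pre-40S particles, fell the most. It measured 74.1, 72.3 and 70.9 CPM at 0h, 75.4, 72.2, 59.1 and 71.6 at 2h and 42.2, 51.6, 53.0 and 55.4 at 4h. The 4h samples were all below the earlier samples, with a log2 fold change of -0.52 ± 0.11 (SE), adjusted p = 0.000589. Nop9 (-0.42 ± 0.12 (SE), adjusted p = 0.00653) and Rrp12 (-0.38 ± 0.13 (SE), adjusted p = 0.0298), an export factor, fell less. The call of Nop9 was lost without 0h clone4_1 (adjusted p = 0.0611), and that of Rrp12 without 0h clone4_1 (0.176), 0h clone8_1 (0.06), 4h clone8_1 (0.0803) or 4h clone8_2 (0.0742).

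Utp15 belongs to the t-UTP complex, which joins the nascent precursor and supports Pol I transcription. It rose, from 34.0, 34.2 and 33.2 CPM at 0h and 37.6, 42.0, 40.8 and 35.6 at 2h to 44.0, 50.6, 43.9 and 45.2 at 4h. Every 4h sample was above every earlier sample, and the log2 fold change in 4h vs 0h was 0.43 ± 0.11 (SE), adjusted p = 0.00382 (-0.30 scaled by the total count). Other t-UTP members of the set, Utp4, Heatr1, Wdr43 and Wdr75, did not pass the test in 4h vs 0h. In 4h vs 2h Heatr1 was lower (-0.24, adjusted p = 0.0178), a call lost without 4h clone8_1 (adjusted p = 0.0667). Nol6 measured 92.4, 68.9 and 74.9 CPM at 0h, 84.1, 81.3, 61.8 and 72.6 at 2h and 104, 92.1, 96.3 and 91.6 at 4h. The 4h samples were above the 2h samples (log2 fold change 0.36 ± 0.089 (SE), adjusted p = 0.00262) but overlapped 0h clone4_1, and in 4h vs 0h the log2 fold change was 0.26 ± 0.097 (SE), adjusted p = 0.0352. Under total count scaling these values were -0.15 and -0.44. The call of Nol6 in 4h vs 0h was lost without 0h clone8_1 (adjusted p = 0.164), 0h clone8_2 (0.117), 4h clone4_1 (0.0504), 4h clone8_1 (0.14) or 4h clone8_2 (0.101). It was also lost in DESeq2 (0.0584), with RLE scaling (0.0534), without the filter (0.57), with no clone term (0.0741) and with only the groups compared (0.106).

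Set against 2h instead of 0h, the deepest falls at 4h were those of Nip7 (-0.90 ± 0.14 (SE), adjusted p = 3.19e-05), Nhp2 (-0.61), Ddx18 (-0.53), Rrs1 (-0.46) and Tsr1 (-0.45), and these calls held without each library in turn. Rrp9 was lower as well (-0.44), with its call lost without 2h clone4_1 (adjusted p = 0.0535) or 2h clone8_2 (0.0655). Beside Nol6 and Rrp1b, Noc3l (0.46), Ubtf (0.40) and Rrn3 (0.27) rose, all of them below 0 under total count scaling, and the call of Rrn3 was lost without 4h clone4_2 (adjusted p = 0.0705).

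After a further 2 h with the MEK inhibitor, rises and falls were no more frequent among the 45 than over all tested genes. In rev vs 4h, 6 of the 45 rose, 6 fell and 33 did not pass the test, against 15.1% and 15.6% of all tested genes. The groups did not overlap for 4 higher and 4 lower members, where 11.9% and 10.8% of all genes were so separated. The median was 0.072, beside 0.016 over all tested genes. Total count scaling gave 6 rises and 0 falls, and the fit without the filter on low counts 10 and 3. Over all tested genes these settings called 3148 of 13451 (2770 higher) and 4134 of 32611 (2519 higher). The 6 rises became 3 without rev clone8_1. The comparisons 4h vs 0h and rev vs 4h share the 4h samples, so opposite signs in them are not independent and are given as levels.

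The genes that rose in rev vs 4h were Nip7, Nhp2, Fbl, Ddx18, Tsr1 and Npm1. Nip7 measured 46.3, 41.2, 41.0 and 34.0 CPM in rev (clone4_1, clone4_2, clone8_1, clone8_2). Each rev sample was above every 4h sample, and the range overlapped that at 0h. Its log2 fold change was 0.77 ± 0.14 (SE), adjusted p = 0.000243. Nhp2 measured 77.7, 64.3, 70.1 and 61.8 CPM in rev, also above every 4h sample and within or near its 0h range, with 0.55 ± 0.12 (SE), adjusted p = 0.00155. Both calls held without each library in turn.

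Fbl stood at 43.8, 37.5, 56.8 and 46.5 CPM in rev, the clone 8 samples higher than those of clone 4. Its groups overlapped, and the log2 fold change was 0.38 ± 0.11 (SE), adjusted p = 0.00798, with the call lost without rev clone8_1 (adjusted p = 0.0649). Ddx18 stood at 51.8, 51.4, 49.5 and 44.4 CPM, above all 4h samples (0.35 ± 0.11 (SE), adjusted p = 0.0177), and its call was lost without 4h clone8_1 (0.0612) or rev clone8_1 (0.0843). Tsr1 stood at 71.0, 64.9, 62.0 and 59.0 CPM, above all 4h samples (0.34 ± 0.10 (SE), adjusted p = 0.0128), and its call was lost without 4h clone4_1 (0.0509). Npm1 stood at 1054, 1109, 1229 and 1043 CPM, highest in rev clone8_1 (0.25 ± 0.070 (SE), adjusted p = 0.00886), and its call was lost without that library (0.0819). Rrp9 and Rrs1, which fell by 4h, did not pass the test in rev vs 4h: Rrp9 measured 38.4, 29.8, 34.4 and 28.9 CPM and Rrs1 56.2, 42.1, 46.4 and 37.4 CPM in rev. For both, the rev samples lay between or across the 4h and 0h samples.

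The genes that fell in rev vs 4h were Nol6, Ubtf, Rrn3, Rrp1b, Utp15 and Noc3l. Under total count scaling, all of these but Nol6 were above 0. Rrn3 measured 106, 105, 112 and 110.4 CPM in rev, each sample below every 4h sample, with a log2 fold change of -0.35 ± 0.081 (SE), adjusted p = 0.00218. Nol6 measured 78.2, 72.4, 70.5 and 67.8 CPM, also with no overlap, with a log2 fold change of -0.41 ± 0.089 (SE), adjusted p = 0.00128. Ubtf measured 162, 128, 112 and 108 CPM, where rev clone4_1 overlapped the 4h samples (-0.40 ± 0.11 (SE), adjusted p = 0.00673).

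Utp15 measured 35.9, 42.5, 30.6 and 37.0 CPM in rev (-0.33 ± 0.10 (SE), adjusted p = 0.0145), all below the 4h samples, and lost its call without 4h clone4_2 (adjusted p = 0.0538) or rev clone8_1 (0.0545). Rrp1b measured 81.1, 69.8, 66.3 and 75.2 CPM (-0.33 ± 0.093 (SE), adjusted p = 0.00884), with a slight overlap. Noc3l measured 39.8, 41.3, 34.4 and 36.9 CPM and overlapped the 4h range (-0.26 ± 0.096 (SE), adjusted p = 0.0415). Its call was lost without any 1 of the 4h and rev libraries except 4h clone8_2, and the adjusted p then lay between 0.0532 (without 4h clone4_1) and 0.127 (without 4h clone4_2). For the Pol I subunits Polr1a and Polr1b and for Ncl, which did not pass the test, the rev and 4h samples overlapped, with log2 fold changes of -0.048, -0.023 and -0.12. In rev, Polr1a measured 123, 142, 126 and 131 CPM, Polr1b 61.8, 53.9, 46.7 and 45.4 CPM and Ncl 1491, 1450.2, 1457 and 1348 CPM.

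In rev vs 0h, 1 of the 45 was higher and 3 were lower, against 6.49% and 4.66% of all tested genes, and 11 (24.4%) had an unadjusted p under 0.05, beside 26.5% of all tested genes. When only these 2 groups were fitted, 10 were called lower and 1 higher. That fit called 3003 of 13451 genes (1509 higher), against 1500 (873 higher) in the fit of all groups. The median log2 fold change was -0.11, beside 0.019 over all tested genes. Gar1 was higher, at 47.9, 50.5, 30.5 and 29.9 CPM in rev (0.38 ± 0.10 (SE), adjusted p = 0.0187), above 0h within each clone and overlapping across clones. Rrp9 (-0.47 ± 0.14 (SE), adjusted p = 0.0316), Polr1b (-0.36 ± 0.099 (SE), adjusted p = 0.024) and Nolc1 (-0.36 ± 0.087 (SE), adjusted p = 0.0101), whose protein is a chaperone of snoRNPs, were lower. Nolc1 lay between 196 and 214 CPM at 0h and between 157 and 165 CPM in rev, with no overlap. Without 0h clone4_1, 0 of the 45 passed the test (adjusted p = 0.0987 for Gar1, 0.089 for Rrp9, 0.092 for Polr1b and 0.0547 for Nolc1). Without 0h clone8_1, 0h clone8_2, rev clone4_2 or rev clone8_2, 1 of the 45 did, Gar1 also lost its call without rev clone8_1, and under total count scaling 0 passed. Where a call was lost without a library, the log2 fold change stayed between 0.32 and 0.40 for Gar1, -0.51 and -0.42 for Rrp9 and -0.37 and -0.32 for Polr1b, and at -0.36 for Nolc1.

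**Figure D4:**
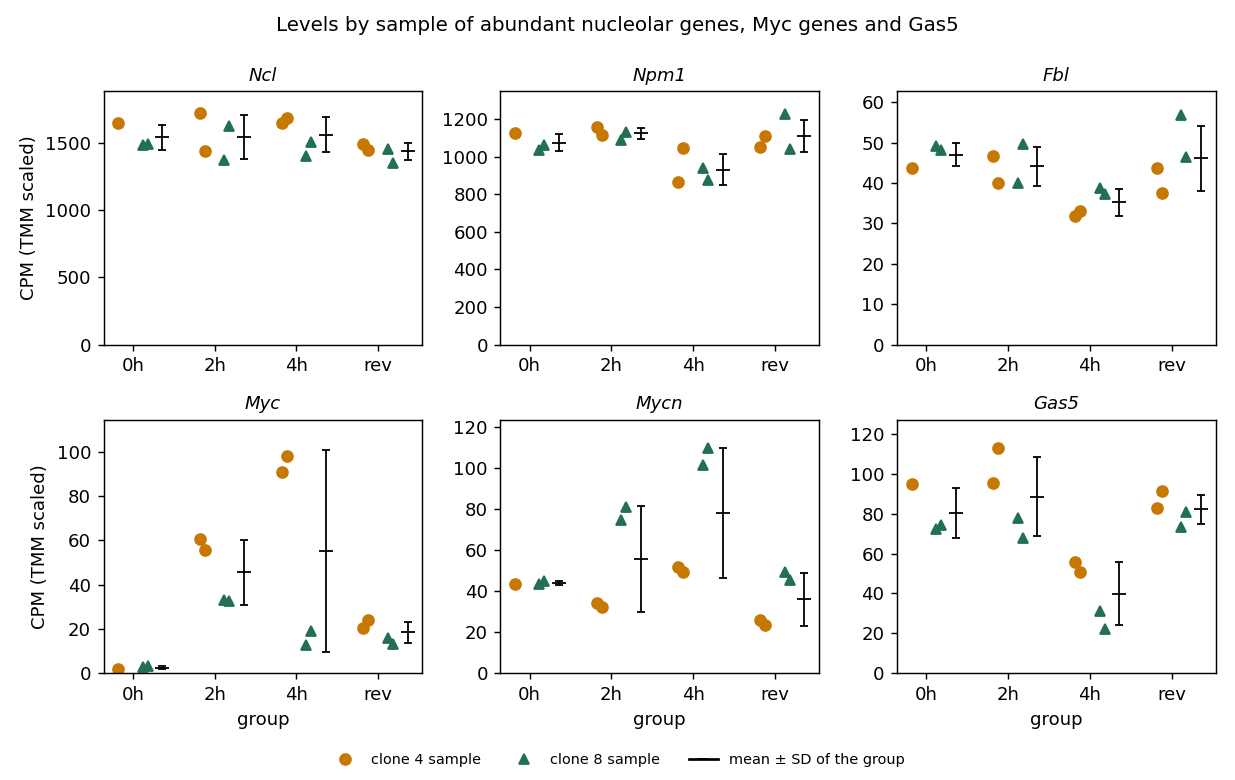
TMM-scaled CPM (y axis, from 0) of Ncl, Npm1, Fbl, Myc, Mycn and Gas5 in each sample by group (x axis), with circles for clone 4, triangles for clone 8 and bars for the group mean ± SD (n = 3 at 0h, n = 4 otherwise). Ncl overlaps between all groups, and Fbl and Gas5 are lowest at 4h. Myc stands between 12.5 and 98.2 CPM at 4h, where clone 4 is above clone 8, against 1.62 to 3.15 CPM at 0h.

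Myc itself, the known activator of this programme and a gene that ERK signalling is known to induce, was also measured. Myc measured 1.62, 2.54 and 3.15 CPM at 0h, 60.5, 55.7, 33.1 and 32.7 at 2h and 91.0, 98.2, 12.5 and 18.8 at 4h. The rev samples of Myc measured 20.3, 24.0, 15.9 and 13.3 CPM. All later samples were above all 0h samples, and clone 4 was above clone 8 at 2h, 4h and rev. The log2 fold change was 3.93 ± 0.60 (SE), adjusted p = 0.00345, in 2h vs 0h and 3.96 ± 0.62 (SE), adjusted p = 0.000598, in 4h vs 0h. Mycn, a family member that stood above Myc at 0h, measured 43.6, 43.2 and 45.1 CPM at 0h, 34.4, 32.1, 74.7 and 81.2 at 2h and 51.9, 49.4, 102 and 109.7 at 4h. The rev samples of Mycn measured 26.0, 23.6, 49.2 and 45.2 CPM. Here clone 8 was above clone 4 from 2h on. Its log2 fold change was 0.83 ± 0.17 (SE), adjusted p = 0.00087, in 4h vs 0h, with 0.22 in clone 4 and 1.26 in clone 8, and -1.10 ± 0.16 (SE), adjusted p = 3.67e-05, in rev vs 4h. Under total count scaling Mycn in 4h vs 0h was 0.084 with an adjusted p of 0.814. Max, the partner of Myc on DNA, rose as well (0.85 ± 0.12 (SE), adjusted p = 8.00e-06, and 0.11 with an adjusted p of 0.771 under total count scaling). Mycl was lower at 4h (-0.92 ± 0.32 (SE), adjusted p = 0.0329), a call lost without 0h clone4_1 (adjusted p = 0.322), 4h clone4_1 (0.0591) or 4h clone4_2 (0.0816). In rev vs 4h, Myc stood at -1.31 ± 0.48 (SE), adjusted p = 0.0612, and it passed the test without 4h clone8_1 (0.0131) or 4h clone8_2 (0.0481), in DESeq2 (0.0223) and under total count scaling (0.00526).

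Other genes of the pathway, taken from 5 lists that leave out the 45, were counted in the same comparisons. Of 107 tested, 40 fell and 9 rose in 4h vs 0h, with a median of -0.20, beside 18.9% of all tested genes lower and 20.5% higher. The list counts that follow stand against the same shares. With total count scaling 84 fell and 0 rose, and without the filter on low counts 47 fell and 2 rose. Over all tested genes these settings called 6697 of 13451 (476 higher) and 5441 of 32611 (2226 higher). The falls became 26 without 0h clone4_1, and the rises 4 without 0h clone8_1 or 4h clone4_2 and 5 without 0h clone8_2 or 4h clone8_1. Among 40 large subunit factors 18 fell and 4 rose. Mrto4 (-1.22 ± 0.16 (SE), adjusted p = 5.61e-06), which helps to build the stalk of the large subunit, and Eif6 (-0.96 ± 0.16 (SE), adjusted p = 0.000114), which keeps immature large subunits from joining small ones, were the deepest falls of that list. Mrto4 measured 57.2, 40.2 and 39.4 CPM at 0h and 17.7, 21.2, 22.8 and 16.6 CPM at 4h, with no overlap. Among 34 small subunit factors 10 fell and 1 rose, led by Wdr46 (-0.93) and the methyltransferase gene Emg1 (-0.85).

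Among 11 snoRNP and assembly factors 5 fell and 1 rose. Znhit3 (-1.28 ± 0.21 (SE), adjusted p = 5.00e-05) and Pih1d1 (-0.96 ± 0.19 (SE), adjusted p = 0.00036), which load snoRNP proteins, fell the most, and Snu13, the protein that binds the kink of box C/D RNAs, rose (0.61 ± 0.15 (SE), adjusted p = 0.00307). Among 11 Pol I factors 3 fell and 1 rose. Polr1d (-0.63) and Polr1c (-0.47), subunits shared with Pol III, fell, and Znrd1, a small Pol I subunit, rose (0.65, a call lost without 4h clone8_1 with an adjusted p of 0.0688). Among 11 exosome genes, whose proteins trim the ends of precursor RNAs, 4 fell and 2 rose, led by Exosc7 (-0.90), Exosc2 (-0.71) and Exosc10 (0.43). Tex10 (0.61) and Riok1 (0.35) were rises of the large and small subunit lists, the latter call lost without 0h clone8_1 (adjusted p = 0.0678) or 4h clone4_2 (0.0535). All 5 of these rises (Snu13, Znrd1, Exosc10, Tex10 and Riok1) were below 0 under total count scaling.

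In rev vs 4h, 25 of the 107 rose and 11 fell, with a median of 0.12, beside 15.1% of all tested genes higher and 15.6% lower (28 rose and 0 fell scaled by the total count, 32 and 0 without the filter). Over all tested genes these settings called 3148 of 13451 (2770 higher) and 4134 of 32611 (2519 higher). The rises of the 107 became 15 without rev clone8_1. The 11 became 4 without 4h clone4_2, 6 without 4h clone8_1, rev clone4_1 or rev clone4_2, and 7 without rev clone8_1. Mrto4 (1.07), Znhit3 (1.02), Emg1 (0.61), Exosc7 (0.59) and Polr1d (0.45) rose the most in their lists. Of 10 tested snoRNA host genes, whose introns carry snoRNAs, 6 fell in 4h vs 0h (median -0.63), 5 rose in rev vs 4h, and the rest did not pass the test. Gas5 went from 95.2, 72.5 and 74.3 CPM at 0h to 55.6, 50.6, 31.4 and 22.2 CPM at 4h, and its rev samples measured 83.0, 91.6, 73.6 and 80.9 CPM. The 4h samples were the lowest (-1.15 ± 0.14 (SE), adjusted p = 3.49e-06), and Snhg8 fell as well (-1.05 ± 0.23 (SE), adjusted p = 0.000906). Of 8 genes of the p53 response, which faulty ribosome assembly is known to set off, 6 fell (Bbc3, Plk2, Bax, Mdm2, Cdkn1a and Ccng1) and 1 rose (Rrm2b) in 4h vs 0h. Between 4 and 6 fell without each library in turn, the fewest without 0h clone8_1 or 0h clone8_2. Under total count scaling 7 fell and 0 rose, and the rise was also lost without the filter, with only the groups compared, and without 0h clone4_1, 0h clone8_2 or 4h clone4_2. In the same list 2 rose in 2h vs 0h (median 0.29), 1 rose and 0 fell in rev vs 4h, 4 fell in rev vs 0h, and 6 were higher in clone 8 than in clone 4. Of all tested genes, 3.98% were higher in 2h vs 0h, 4.66% lower in rev vs 0h and 10.4% higher in clone 8. In rev vs 4h, 2 rose under total count scaling and without 4h clone8_1 or 4h clone8_2, 2 rose and 1 fell without the filter and with only the groups compared, and 1 fell without 4h clone4_1, 4h clone4_2, 4h clone8_1 or rev clone8_1.

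The 45 genes did not form a single pattern over the 15 samples. The Pearson correlation of each gene's log-CPM with the mean of the other 44 ran from -0.49 (Rrn3) through a median of 0.50 to 0.78 (Rrs1), and 35 of the 45 were above 0. Rrs1, Nop16 and Ddx21 stood at the upper end, and Rrn3, Nop2, Noc3l and Utp15 at the lower end. All points share the libraries, the clones and the scaling. The genes outside the set with the closest course to the mean of the 45 were Hdgf, Larp7, Polr2c, Hmgb1 and Traip (Pearson's r between 0.90 and 0.91 over 15 samples), which is a description of these samples. Exon length had a median of 2957 bp in the 15 that fell and 4318 bp in the 7 that rose. Across the 45 genes, exon length and the log2 fold change had a Pearson correlation of 0.304 and a Spearman correlation of 0.328, beside 0.102 and 0.138 across 13436 tested genes, and genes are not independent replicates. The part of length in the result was not tested.

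In the GENCODE M21 annotation (GRCm38), 22 of the 45 share exon positions with another gene, 20 of them with a gene on the opposite strand, and whether the counting used strand is not given in the sources used here. The shared stretch exceeded 1000 bp for 3 genes: Tsr1 with Srr, Dimt1 with Kif2a, and Nop9 with Cideb. Reads of these pairs may not be told apart. Rrp9 shares 20 bp with Parp3 and Nhp2 44 bp with Rmnd5b, while Nip7, Ddx18, Rrs1, Noc3l, Gar1, Rrn3 and Nop2 share none. Rrp9 lies at chr9:106475963-106485424, plus strand, Nhp2 at chr11:51619735-51623714, plus strand, Ddx18 at chr1:121553835-121567989, minus strand, Rrs1 at chr1:9545408-9547455, plus strand, Noc3l at chr19:38788128-38819237, minus strand, and Rrn3 at chr16:13780708-13814839, plus strand. Annotated snoRNAs lie inside 7 of the 45.

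The clones differed as well. With the group held fixed, 12 of the 45 were lower and 1 was higher in clone 8 than in clone 4, against 8.11% and 10.4% of all tested genes. The median log2 difference was -0.13, beside 0.0020 over all tested genes, and 40 of the 45 were below 0. Gar1 stood out: over all groups it lay between 39.4 and 54.8 CPM in the 7 samples of clone 4 and between 21.8 and 31.7 CPM in the 8 samples of clone 8. Every clone 8 sample was below every clone 4 sample, with a log2 difference of -0.83 ± 0.069 (SE), adjusted p = 2.97e-08. Ubtf (-0.34 ± 0.078 (SE), adjusted p = 0.00341) and Pno1 (-0.32 ± 0.083 (SE), adjusted p = 0.00922), a pre-40S factor, were lower in clone 8 too, and Nop2 was higher (0.37 ± 0.074 (SE), adjusted p = 0.00129).

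The count of 13 depended on single libraries. It became 6 without 0h clone4_1, rev clone4_1 or rev clone8_2, 7 without 0h clone8_1, 0h clone8_2 or 2h clone4_1, and 8 without 2h clone8_1 or 4h clone8_1. Under total count scaling it was 1, which was Gar1. Among the 107 other ribosome biogenesis genes 23 were lower and 5 higher in clone 8, beside 8.11% and 10.4% of all tested genes. The course over time was not shown to differ between the clones: 0 of the 45 passed the joint test of the 3 interaction terms in edgeR, against 3.18% of all tested genes, and 1 (Wdr12) had an unadjusted p under 0.05. In 4h vs 0h, 34 of the 45 had the same sign in both clones, with medians of -0.12 in clone 4 and -0.18 in clone 8. In rev vs 4h, 36 of the 45 did.

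**Figure D5:**
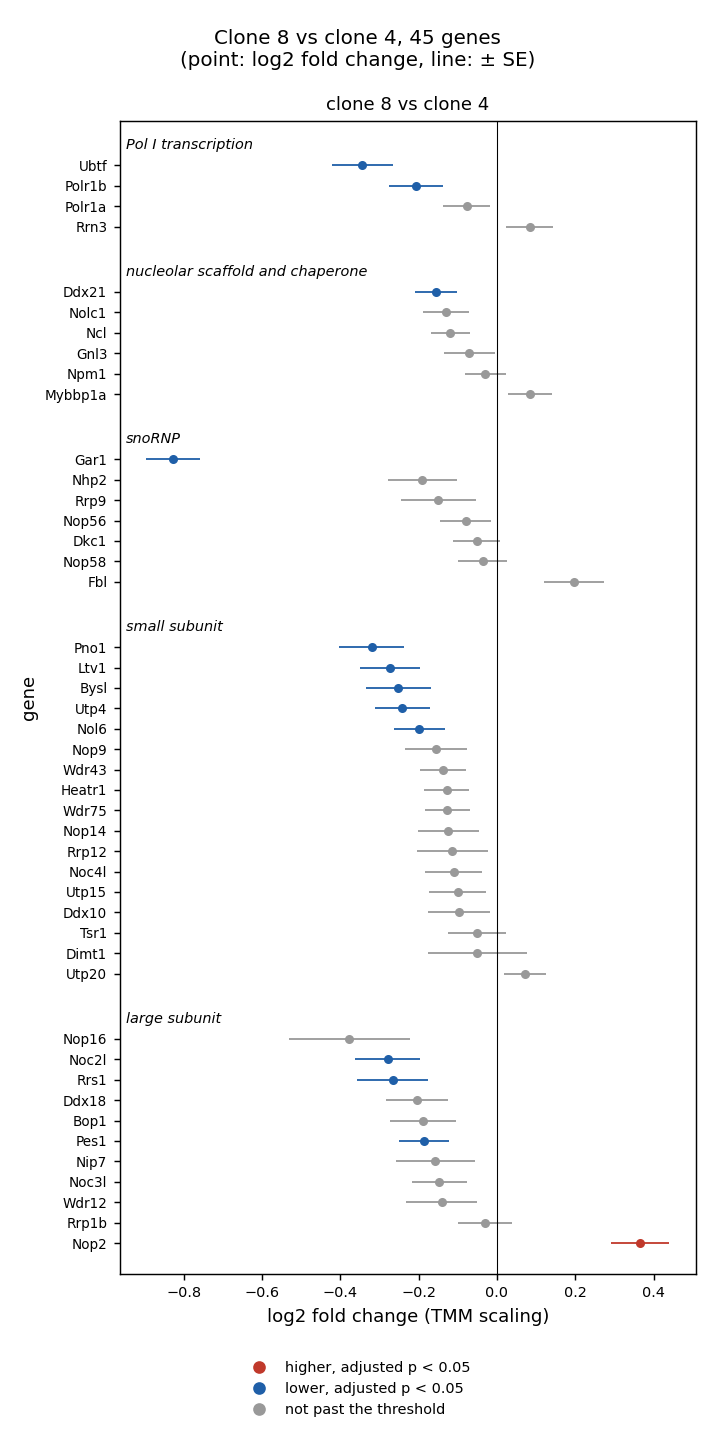
Log2 difference of clone 8 from clone 4 (x axis, TMM scaling, all groups fitted together) for the 45 genes (y axis, by role); points are fitted values, lines ± SE, and colour marks an adjusted p under 0.05. Most points lie left of 0 (40 of 45), Gar1 farthest at -0.83, and Nop2 is the 1 coloured point to the right.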

How the data were processed

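Gene-level raw counts for 15 RNA-seq libraries were deposited by the authors as 1 table of 52636 Ensembl genes. Per the submitters' processing notes, bcl2fastq 2.19.1 and STAR 2.5.3a were used with the mm10 genome. Per the labels' protocols, rRNA was depleted before library preparation. The counting tool, annotation and strand setting are not given in the sources used here. 1 further 0h sample is noted as discarded by the authors and was not analysed here.

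Groups and clones came from the sample labels. Genes were kept with edgeR 4.0.16 (filterByExpr, minimum count 10, minimum total 15), scaled by TMM and tested with the quasi-likelihood F test, two-sided, on group with clone as a term, over all 15 samples in R 4.3.3. P-values were adjusted by Benjamini-Hochberg over the 13451 genes kept, with a threshold of 0.05. A joint test of group by clone terms compared the clones. The calculation was tested on simulated counts with 200 changed genes and no clone difference. At a log2 change of 0.5 it found 27 of 200 in 4h vs 0h and 23 of 200 in rev vs 4h. At a log2 change of 1 it found 125 and 137, with 13 and 9 false calls. Many changes of the size seen here can thus fail to pass the test. Symbols, positions and exon lengths came from GENCODE M21 (GRCm38).

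The members, role groups and gene lists were chosen with earlier results of these data known. The lists held other Pol I factors, small subunit factors, large subunit factors, snoRNP and assembly factors, exosome genes, snoRNA host genes, Myc genes and the p53 response. Values per sample are given for the members past the threshold that were among the 5 largest rises or falls of a comparison, had a mean of at least 1 CPM and had 1 sign in both clones, for the 4 Pol I genes, and for Ncl, Npm1 and Fbl. From each list, up to 2 rises and 2 falls were taken the same way. Genes named beyond this rule (Bop1, Dkc1, Ddx21, Noc2l, Nop2, Nop9, Rrp12, Nolc1, Heatr1 and Nop58) passed the test in a comparison and were added after their values were seen.

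Total counts ranged from 1552022 to 13004556, and 3 counts corresponded to between 0.161 and 1.83 CPM. Alternatives were other scalings (RLE, total count, and TMM after removing mitochondrial genes and the 20 genes of highest abundance), no filter, DESeq2 1.42.0, only the groups compared, no clone term, a replicate block, each library left out, and, chosen after seeing the data, edgeR's legacy dispersion.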

Additional observations from a re-analysis of the deposited data

Results flagged for a closer look

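Of 135 combinations of a gene and a group of 4 samples, 3 had 1 sample far from the rest by Dixon's criterion at the 95% level, and chance alone flags about 1 in 20 such groups. Nop56, a core box C/D snoRNP protein, measured 132.8 CPM in rev clone8_1, below the other rev samples (142 to 144 CPM). Ltv1, a factor of late pre-40S particles, measured 51.1 CPM in 4h clone4_2, above the other 4h samples (33.2 to 35.4 CPM). Dimt1, the small subunit rRNA dimethyltransferase, measured 11.4 CPM in rev clone4_1, above the other rev samples (8.16 to 8.46 CPM).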

How the results depend on the processing

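Nip7 and Nhp2 stayed past the threshold in the same direction from 0h to 4h, from 2h to 4h and from 4h to rev under each alternative run. With total count scaling the median of the 45 genes was -0.24 at 2h and -0.83 at 4h relative to 0h, -0.59 at 4h relative to 2h, and in rev 0.47 relative to 4h and -0.43 relative to 0h. Rises and falls then numbered 0 and 0 at 2h, 0 and 35 at 4h, 0 and 22 from 2h to 4h, 6 and 0 from 4h to rev, and 0 and 0 from 0h to rev, and 1 gene differed between clones. Over all tested genes total count scaling called 266 from 0h to 2h (158 higher) and 759 from 0h to rev (242 higher). Of the 45, 16 changed sign under it from 0h to 4h (each of the 16 above 0), 20 from 2h to 4h (each of the 20 above 0) and 18 from 4h to rev (18 of the 19 below 0); 13 did from 0h to 2h and 15 between 0h and rev. Among the genes described singly, those from 0h to 4h, list genes included, were Polr1a (-0.60), Ubtf (-0.33), Rrn3 (-0.28), Dkc1 (-0.42), Gar1 (-0.26), Utp15 (-0.30), Nol6 (-0.44), Noc3l (-0.22), Exosc10 (-0.30), Riok1 (-0.38), Snu13 (-0.14), Tex10 (-0.11) and Znrd1 (-0.13). Among the members described singly from 2h to 4h they were Ubtf (-0.13), Rrn3 (-0.26), Nol6 (-0.15), Noc3l (-0.071) and Rrp1b (-0.26), and from 4h to rev Polr1a (0.31), Polr1b (0.36), Ubtf (0.0024), Rrn3 (0.045), Ncl (0.26), Utp15 (0.077), Noc3l (0.14) and Rrp1b (0.085). Without the filter on low counts the median was -0.22 from 0h to 4h and -0.18 from 2h to 4h, with 2 rises in each, 10 rose and 3 fell from 4h to rev, and 0 were higher in rev than at 0h. Polr1a was then -0.043 from 0h to 4h and 0.043 from 4h to rev, and Polr1b 0.069 from 4h to rev. With no clone term 4 rose from 0h to 4h, 0 fell from 0h to 2h, and 0 were higher and 1 lower in rev than at 0h. In fits of only the groups compared 3 rose from 2h to 4h and 10 were lower in rev than at 0h. Set against the median tested gene of its own fit, each called member had 1 sign under TMM and total count scaling. This held for 22 of 22 from 0h to 4h, 20 of 20 from 2h to 4h and 12 of 12 from 4h to rev. The cause of the changes under these settings was not tested. Ncl from 0h to 4h was 0.019 with no clone term and -0.051 to 0.018 with 1 library left out. From 4h to rev, Polr1a was -0.082 to 0.00069 and Polr1b -0.084 to 0.029 with 1 library left out.

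With the replicate block, 7 rose and 12 fell from 0h to 4h (median -0.10), 5 and 16 from 2h to 4h, 8 and 6 from 4h to rev, 1 and 2 from 0h to rev, and 0 and 1 from 0h to 2h, and Ncl from 0h to 4h was 0.014. Deviations from group means correlated at 0.046 to 0.436 between samples of 1 clone with the same number and at 0.079 to 0.439 between those of 1 clone with other numbers, so the numbers were not shown to pair the samples.

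Leaving out 1 library at a time gave medians of -0.090 to -0.0059 from 0h to 2h, -0.16 to -0.090 from 0h to 4h, -0.11 to -0.030 from 2h to 4h, 0.022 to 0.12 from 4h to rev and -0.14 to -0.059 from 0h to rev. Rises numbered 5 to 7 from 0h to 4h, 3 to 6 from 2h to 4h, 3 to 9 from 4h to rev and 0 to 1 from 0h to rev. Falls numbered 0 to 3 from 0h to 2h, 10 to 15 from 0h to 4h, 13 to 17 from 2h to 4h, 4 to 7 from 4h to rev and 0 to 4 from 0h to rev, and 6 to 14 genes differed between clones. The test of a clone difference in response could not be fitted without 0h clone4_1, and the fit without the most abundant genes gave no value for Ncl and Npm1. The 4h libraries had the fewest counts.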
